A study of Mus musculus with 8 samples.

Results

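The transcripts of 10 nuclear genes that keep proteins folded or remove them inside mitochondria were examined in gastrocnemius, the large calf muscle, of aged mice labelled as muscle-specific Nox4 knockouts (KO) and of their controls. NOX4 is an NADPH oxidase that produces hydrogen peroxide. The members were the 5 chaperone genes Hspd1, Hspe1, Hspa9, Dnaja3 and Trap1 and the 5 protease genes Lonp1, Clpp, Clpx, Yme1l1 and Afg3l2, taken by name from the count table. All 10 were among the 32390 rows of the count table and among the 12725 rows with enough counts to be tested. The control group was 4 Nox4 fl/fl mice, whose Nox4 is flanked by loxP sites and intact, and the KO group was 4 MckCre:Nox4 fl/fl mice, which carry the same alleles together with a Cre transgene under the muscle creatine kinase (Mck) promoter. The Mck promoter is active mainly in skeletal muscle and less in heart, so other cells of the tissue keep the gene, and mice with the transgene but without the loxP sites were not among the groups compared here. All 8 were chow-fed males on a C57BL/6 background and 21 months old per the labels, with the labels placing them in 1 batch. The question was whether the folding genes of mitochondria moved with those of the cytosol in mice of the KO group.

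Most mitochondrial proteins are made in the cytosol, pass through the membranes unfolded and must be refolded inside. In the matrix, the HSP70 of mitochondria, encoded by Hspa9, pulls proteins in and folds them with J proteins such as the product of Dnaja3, and a barrel built from HSP60 (Hspd1) closed by a lid of HSP10 (Hspe1) folds many of them further. Proteins that cannot be folded are cut by ATP-driven proteases, namely LONP1 and the ClpXP complex in the matrix and the AFG3L2 and YME1L1 proteases in the inner membrane. When folding in mitochondria is disturbed, cells can raise several of these genes together through factors such as ATF4, ATF5 and CHOP, whereas the cytosolic chaperones respond mainly to heat shock factor HSF1.

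The libraries held between 16350548 and 19804661 counts on genes, with overlapping ranges in both genotypes. The counts of Nox4 itself were 85, 48, 35 and 70 over the control replicates, in order of their numbers, and 29, 43, 42 and 37 over the KO replicates. These ranges overlapped, and the log2 fold change of -0.65 ± 0.292 (SE) did not pass the test (adjusted p = 0.207 in edgeR's quasi-likelihood test, adjusted by Benjamini-Hochberg over all 12725 rows). The loss of Nox4 could thus not be verified from these counts, and the genotypes are given as labelled. The skeletal muscle markers summed to 133908 to 163590 CPM (counts scaled to a common library size by edgeR's TMM factors) in control and 145627 to 162302 in KO libraries. On the second principal component, which held 19.0% of the variance, replicates 1 and 3 of both genotypes lay on the other side of 0 from replicates 2 and 4.

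Among the 10 members, Clpx fell in KO muscle and was the only member called, that is, with both an adjusted p under 0.05 in edgeR and a log2 fold change beyond 0.5 in size. Over all rows tested, 3.48% were called lower and 2.68% higher, and the members' counts of 1 of 10 lower and 0 higher are near these shares. With no minimum fold change, 1 member was again lower and 0 higher, where 4.62% of all rows were lower and 3.13% higher. The 4 KO libraries lay below all 4 control libraries for 3 members (Hspa9, Clpx and Yme1l1), a pattern found in 8.97% of all rows, and above all of them for 0 members, where 7.20% of all rows did so. All 10 fitted log2 fold changes were below 0, as were 47.7% of those of all rows, and they stayed below 0 under each way of scaling the libraries that was tried. The sign of Clpp turned when either KO replicate 2, KO replicate 4 or control replicate 1 was left out. The median over the members was -0.17 (all named rows, 0.01) and, without Clpx, also -0.17. Without KO replicate 2, the lowest of all libraries for 7 members, the median over the 10 members was -0.107. In bulk tissue, fewer cells of a type and less RNA per cell cannot be told apart.

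**Figure D1:**
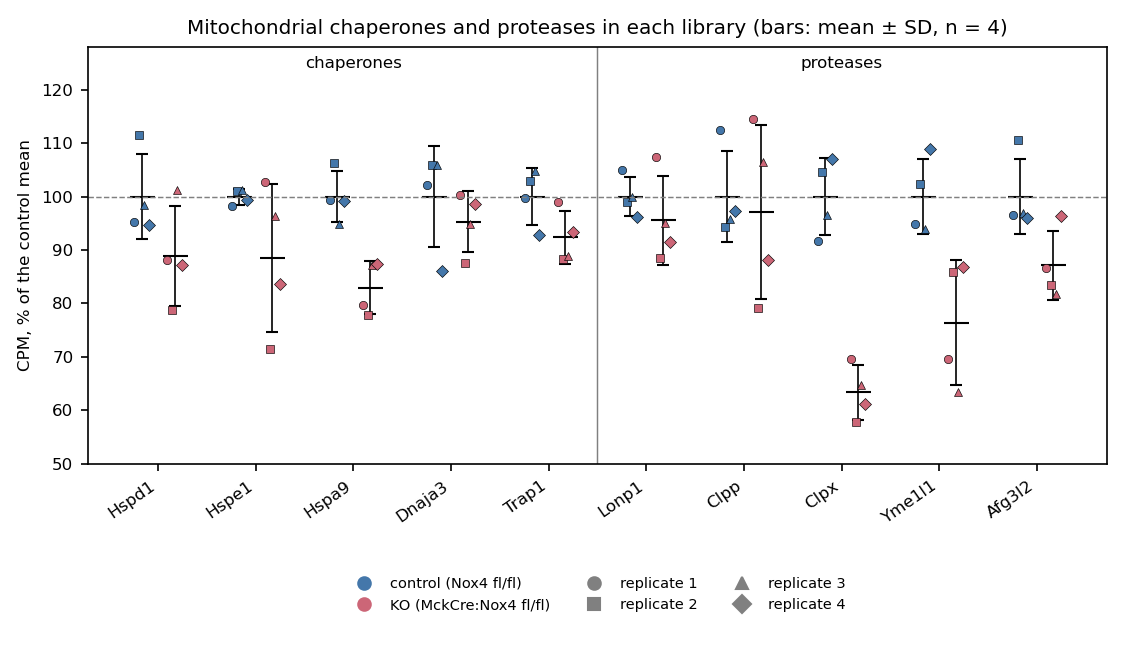
CPM of each member in each library, as a percentage of the mean of the 4 control libraries, on an axis that starts at 50%. Blue points are control and red points KO libraries, symbols mark the replicate number, and bars give the mean and SD of 4 mice. The KO points lie wholly below the control points only for Hspa9, Clpx and Yme1l1, and Clpx sits lowest, at 63.4% of the control mean.

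Clpx encodes the ring-shaped ATPase that unfolds substrates and threads them into the ClpP peptidase, and it also helps to activate the first enzyme of heme synthesis. Its level was 113, 129, 119 and 132 CPM in control replicates 1 to 4 and 85.8, 71.2, 79.9 and 75.4 CPM in KO replicates 1 to 4. Each KO library was thus well below each control library, and the SDs were similar in both genotypes. The mean was 123 ± 8.47 CPM for control and 78.1 ± 6.29 CPM for KO muscle (SD, n = 4 each), a decrease of 36.6%. The log2 fold change was -0.66 ± 0.0978 (SE; 95% confidence interval, -0.87 to -0.45) with an adjusted p of 0.0023 in edgeR. The values rest on 1892 to 2533 counts per control library and 1286 to 1520 per KO library, and no exon of another annotated gene overlaps those of Clpx.

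The promoter window of Clpx in RefSeq (GRCm38.p6, chr9:65294010-65294309, plus strand, 250 bases before to 50 after the start of the transcript) is shown because this was the member that fell. It held none of the 6 motifs searched, which are described with the other windows further on. Capitals are used only for heat shock elements, so no letters are in capitals here.
Clpx: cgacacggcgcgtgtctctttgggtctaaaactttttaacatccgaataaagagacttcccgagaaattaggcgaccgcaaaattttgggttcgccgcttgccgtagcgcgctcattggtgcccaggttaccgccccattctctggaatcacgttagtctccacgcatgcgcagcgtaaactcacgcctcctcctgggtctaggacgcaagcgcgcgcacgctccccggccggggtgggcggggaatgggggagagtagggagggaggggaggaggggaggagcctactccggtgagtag

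Clpp encodes the peptidase chamber into which ClpX feeds its substrates, and its transcript had no clear difference between genotypes. Clpp had 22.2, 18.6, 18.9 and 19.2 CPM in control and 22.6, 15.6, 21.0 and 17.4 CPM in KO replicates 1 to 4. The KO values lay on both sides of the control values, with replicates 1 and 3 above replicates 2 and 4. The mean was 19.7 ± 1.69 CPM for control and 19.2 ± 3.2 CPM for KO muscle (SD, n = 4 each), and the 95% interval of the log2 fold change ran from -0.33 to 0.25 (edgeR, adjusted p = 0.888). Within each library, the log2 ratio of Clpp to Clpx counts was -2.35, -2.79, -2.66 and -2.77 in control and -1.92, -2.19, -1.93 and -2.11 in KO replicates. Every KO library therefore held more Clpp per Clpx transcript than any control library. The difference of 0.60 (log2) had p = 0.0286 in an exact two-sided permutation test, the smallest p that 4 mice against 4 allow. After adjustment over the 7 ratios compared this p was 0.0667, so the difference did not pass the adjusted threshold.

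Yme1l1 encodes the inner membrane protease whose active sites face the space between the membranes, where it processes OPA1 and degrades import and lipid transfer proteins. Its level was 89.8, 96.8, 88.9 and 103 CPM in control and 65.8, 81.3, 60.1 and 82.1 CPM in KO replicates 1 to 4. The KO libraries were all below the control libraries but fell into a lower pair (replicates 1 and 3) and a higher pair (replicates 2 and 4). The means were 94.7 ± 6.75 CPM (SD, n = 4) and 72.4 ± 11.1 CPM (SD, n = 4), with a log2 fold change of -0.39 ± 0.118 (SE; 95% interval, -0.65 to -0.13). With an adjusted p of 0.0651 in edgeR, this difference of 23.6% did not pass the threshold. The adjusted p was 0.00867 when the same fit also separated odd-numbered from even-numbered replicates, and 0.0295 in DESeq2 and 0.0322 in pydeseq2, all at fold changes too small for a call.

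Afg3l2 and Lonp1 act on the matrix side. Afg3l2, a subunit of the protease that faces the matrix and matures ribosomal and other proteins, had 79.4, 90.9, 79.7 and 78.9 CPM in control and 71.3, 68.6, 67.3 and 79.3 CPM in KO replicates. Of the KO libraries, 3 were below the lowest control library and replicate 4 was among the control values. The means were 82.2 ± 5.79 and 71.6 ± 5.4 CPM (SD, n = 4 each), and the log2 fold change of -0.20 ± 0.0962 (SE) did not pass (edgeR, adjusted p = 0.24). Lonp1, the Lon protease that degrades oxidized matrix proteins, had 90.5, 85.3, 86.2 and 82.9 CPM in control and 92.6, 76.3, 81.9 and 78.9 CPM in KO replicates. Although 3 KO libraries were below the lowest control library, KO replicate 1 was the highest of all 8. Its means were 86.2 ± 3.18 and 82.4 ± 7.15 CPM (SD, n = 4 each), and its log2 fold change of -0.065 had a 95% interval of -0.27 to 0.14 (edgeR, adjusted p = 0.731).

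**Figure D2:**
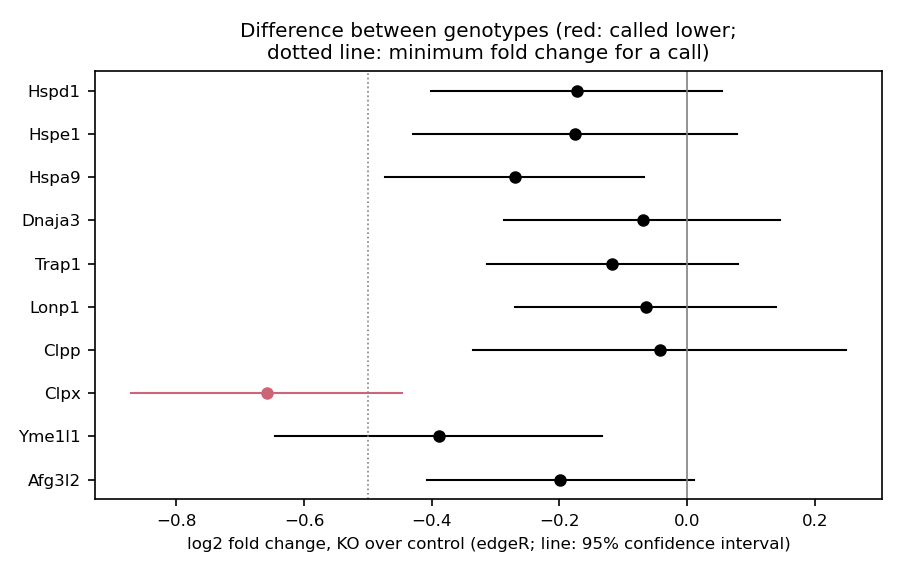
Log2 fold change of each member, KO over control, from edgeR, with lines for the 95% confidence interval (4 mice per genotype). Clpx (red, called lower) is at -0.66, and the intervals of Hspa9 and Yme1l1 also lie below 0. The dotted line marks the fold change of -0.5 needed for a call.

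Hspa9 had the highest level of the chaperone members and the largest difference among them. It stood at 533, 570, 509 and 532 CPM in control and 427, 417, 467 and 468 CPM in KO replicates 1 to 4. All KO libraries were below all control libraries, with a gap wider than the SD of either genotype. The means were 536 ± 25.2 CPM (SD, n = 4) and 445 ± 26.1 CPM (SD, n = 4), or 17.1% lower in KO muscle. The log2 fold change of -0.27 ± 0.0935 (SE; 95% interval, -0.47 to -0.07) had an adjusted p of 0.103 in edgeR and so did not pass. DESeq2 gave an adjusted p of 0.019 and pydeseq2 0.0218, with fold changes below the size needed for a call.

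Hspd1 and Hspe1, which encode the barrel and the lid of the mitochondrial chaperonin, lie head to head and are transcribed away from each other. Hspd1 had 203, 238, 210 and 202 CPM in control and 188, 168, 216 and 186 CPM in KO replicates, and Hspe1 had 50.6, 52.1, 52.2 and 51.2 CPM in control and 52.9, 36.8, 49.7 and 43.1 CPM in KO replicates. For each gene 3 KO libraries were below the lowest control library and 1 was inside or above the control values, namely KO replicate 3 for Hspd1 and KO replicate 1 for Hspe1. KO replicate 2 was the lowest library for both. The control values of Hspe1 were tight, at 51.5 ± 0.767 CPM (SD, n = 4), against 45.6 ± 7.16 CPM (SD, n = 4) in KO muscle. Hspd1 went from 213 ± 16.7 to 189 ± 19.9 CPM (SD, n = 4 each). Neither passed the test: the log2 fold change was -0.17 ± 0.105 (SE) for Hspd1 and -0.18 ± 0.117 (SE) for Hspe1 (edgeR, adjusted p = 0.356 and 0.404). Without KO replicate 2 the log2 fold change of Hspe1 was -0.085.

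The ratio of barrel to lid transcripts stayed near its control value. The log2 ratio of Hspd1 to Hspe1 counts was 2.00, 2.19, 2.01 and 1.98 in control and 1.82, 2.19, 2.12 and 2.11 in KO replicates, with overlapping ranges. The difference of 0.01 (log2) had p = 0.943 in the exact permutation test (0.943 after adjustment over 7 ratios). In the comprehensive GENCODE annotation, which is of an older build than the one used for counting, the exons of both genes share 112 bases on opposite strands. That is 4.24% of the exon length of Hspd1 and 7.6% of that of Hspe1, and in unstranded libraries reads from there cannot be assigned to either gene.

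The shared promoter is shown in the Hspe1 direction (GRCm38.p6, chr1:55087898-55088197, plus strand, 250 bases before to 50 after the start of Hspe1, from RefSeq) because it was the only member promoter with a heat shock element of 3 units. Capitals mark a stretch of overlapping heat shock elements, a run of units that alternate between GAA and its reverse complement and that HSF1 is known to bind. This run is longer than 3 units and starts 89 bases before the start of Hspe1, and matches to the element of 3 units overlap within it.
Hspe1: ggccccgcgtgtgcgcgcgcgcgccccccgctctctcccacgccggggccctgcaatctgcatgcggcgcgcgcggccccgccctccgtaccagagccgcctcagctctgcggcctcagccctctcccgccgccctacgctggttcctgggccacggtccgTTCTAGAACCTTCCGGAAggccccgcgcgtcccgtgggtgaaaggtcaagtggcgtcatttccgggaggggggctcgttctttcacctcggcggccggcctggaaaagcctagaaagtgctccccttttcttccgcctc

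Dnaja3 and Trap1 differed least clearly among the chaperones. Dnaja3 had 112, 116, 116 and 94.4 CPM in control and 110, 95.9, 104 and 108 CPM in KO replicates, so that its lowest value belonged to control replicate 4. Trap1, the HSP90 of mitochondria, had 158, 163, 166 and 147 CPM in control and 157, 140, 141 and 148 CPM in KO replicates. For Trap1, 2 KO libraries were below the lowest control library. The means were 110 ± 10.3 and 104 ± 6.21 CPM (SD, n = 4 each) for Dnaja3 and 158 ± 8.36 and 146 ± 7.86 CPM (SD, n = 4 each) for Trap1. The 95% intervals of the log2 fold change, -0.29 to 0.15 for Dnaja3 and -0.31 to 0.08 for Trap1, included 0 (edgeR, adjusted p = 0.724 and 0.481). Their exons share 153 and 160 bases with those of Coro7 and Vasn for Dnaja3 and 54 bases with those of Dnase1 for Trap1. These neighbours held few counts beside the members, 1237, 953 and 610 in all 8 libraries together against 15648 for Dnaja3 and 22285 for Trap1.

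Of the 9 members that were not called, 8 had a 95% interval that ended above a log2 fold change of -0.5, the exception being Yme1l1. The Clpx estimate of -0.658 lay outside the intervals of all 9, but only just outside that of Yme1l1, which ended at -0.645. The interval of Clpx itself, -0.87 to -0.45, overlapped those of Yme1l1 and Hspa9. Whether Clpx differed from these 2 members was not tested.

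Per kilobase of the exons in the basic GENCODE annotation, Hspa9 stood highest in control muscle at 176 ± 8.25 CPM per kb (SD, n = 4). Hspd1 followed at 88.0 ± 6.91, then Trap1 at 68.3 ± 3.6 and Hspe1 at 66.6 ± 0.992 CPM per kb (SD, n = 4 each). The levels of Trap1 and Hspe1 were closer than their spread on these lengths, but the place of Hspe1 depends on the length used: it was 34.96 ± 0.521 CPM per kb on the 1474 bases of the comprehensive annotation instead of the 774 of the basic one, against 61.6 ± 3.25 for Trap1. Clpx (42.7 ± 2.93) and Dnaja3 (41.4 ± 3.89) formed the next pair on the basic lengths, again within their SDs. On the comprehensive lengths these 2 stood apart, at 35.26 ± 2.42 and 28.02 ± 2.63 CPM per kb. Lonp1 (29.2 ± 1.08) and Afg3l2 (26.6 ± 1.87) followed on the basic lengths. Clpp (20.1 ± 1.72) and Yme1l1 (20.1 ± 1.43 CPM per kb) were lowest there, but apart on the comprehensive lengths (16.14 ± 1.38 and 11.83 ± 0.842). Afg3l2 was the lowest member on the comprehensive lengths, at 8.33 ± 0.586 CPM per kb, where Hspa9, Hspd1 and Trap1 remained the highest in that order. The lid gene Hspe1 was below the barrel gene Hspd1 by more than the SD of either on both lengths.

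Lower levels were frequent among the cytosolic folding genes. Of 59 cytosolic chaperones and cochaperones tested, 12 (20.3%) were called lower and 0 higher in edgeR (all rows, 3.48% and 2.68%). At an adjusted p under 0.05 with no minimum fold change, 18 were lower and 0 higher (all rows, 4.62% and 3.13%). A log2 fold change below 0 was found for 44, and for 47.7% of all rows. In 26 (44.1%) all KO libraries were below all control libraries and in 1 above (all rows, 8.97% and 7.20%). The median log2 fold change was -0.28. The summed level of these 59 genes was 10213, 10033, 10013 and 10297 CPM in control and 8674, 7241, 7597 and 8195 CPM in KO replicates. The summed level of the 10 mitochondrial members was 1452, 1559, 1446 and 1443 CPM in control and 1273, 1170, 1286 and 1285 CPM in KO replicates. Both sums were lower in every KO library than in any control library. Hspa9 contributed the most to the members' sum.

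By class, the HSP70, HSP110 and J protein list had 6 of 24 genes called lower, the HSP90 list 3 of 14, the small heat shock proteins 3 of 7 and the cytosolic chaperonin TRiC with prefoldin 0 of 14, and none of these lists had a gene called higher. Over all rows, 3.48% were called lower and 2.68% higher. Hspb1, the small heat shock protein HSP27, fell from 186 ± 30.0 to 80.2 ± 15.8 CPM (SD, n = 4 each; log2 fold change -1.21, adjusted p = 9.78e-04 in edgeR). Hspb7 (log2 fold change -1.16) and Hspb6 (-0.53) also fell. Bag3, the cochaperone that links HSP70 to autophagy in muscle, fell from 215 ± 13.7 to 131 ± 16.1 CPM (SD, n = 4 each; -0.71, adjusted p = 0.00283). The heat-inducible Hspa1a (-1.61) and Hspa1b (-1.75) fell as well, though their near-identical sequences make the split of reads between them uncertain. In the HSP90 list, Ptges3 (-0.68), Hsp90aa1 (-0.78) and Fkbp5 (-1.71), a cochaperone that glucocorticoids induce, were called lower. In TRiC the smallest p was that of Cct6a, with a log2 fold change of -0.35 (adjusted p = 0.0354) that was too small for a call.

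**Figure D3:**
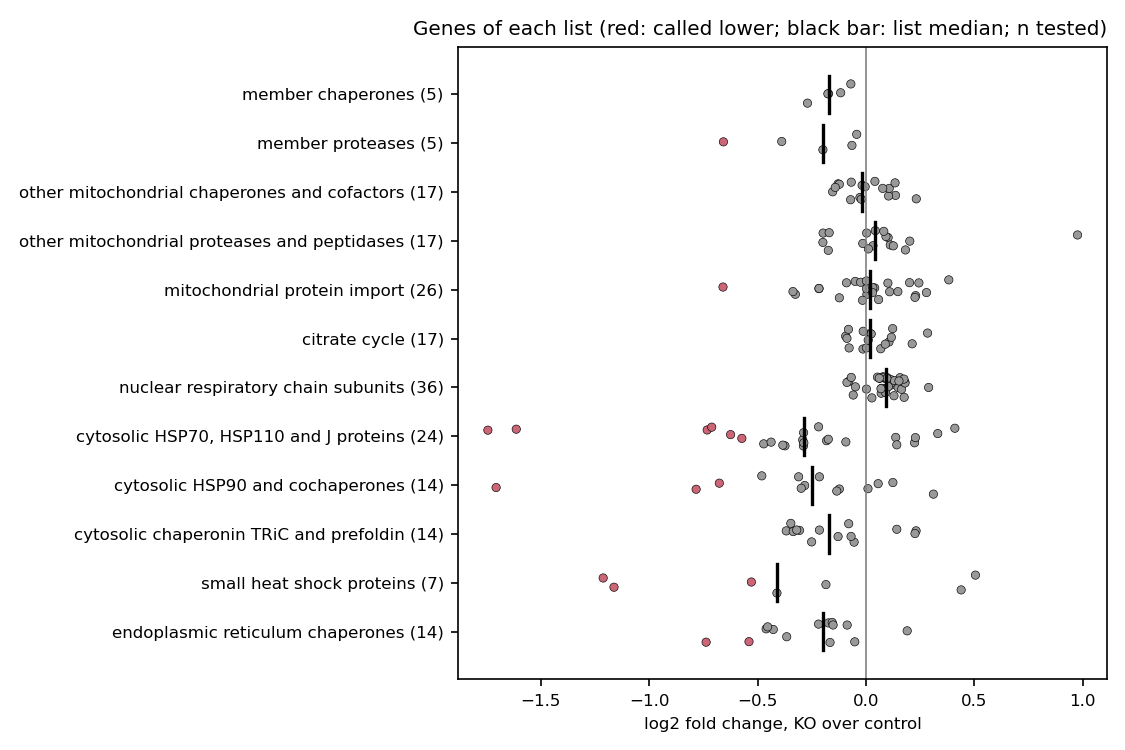
Log2 fold change, KO over control, of every tested gene in 12 lists, with 1 point per gene, red for genes called lower and black bars for the median of each list. The cytosolic lists and the endoplasmic reticulum list spread to the left of 0, whereas the other mitochondrial lists centre near 0 and Clpx and Timm10 are the only red points in the mitochondrial lists.

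Mitochondrial members were set against their cytosolic relatives within each library, where scaling cancels. Hspa8, the constitutive cytosolic HSP70, went from 1283 ± 80.8 to 925 ± 108 CPM (SD, n = 4 each; log2 fold change -0.47, adjusted p = 0.0242 in edgeR, too small a fold change for a call). The log2 ratio of Hspa9 to Hspa8 was -1.32, -1.26, -1.25 and -1.20 in control and -1.27, -0.97, -0.86 and -1.10 in KO replicates. KO replicate 1 lay among the control values and the other KO replicates above them, and the difference of 0.21 did not pass (exact permutation p = 0.114, adjusted 0.16). With 1 library left out it ranged from 0.144 (without KO replicate 3, exact permutation p = 0.2) to 0.279 (without KO replicate 1, p = 0.0286), the latter being the only one of the 8 such runs with p under 0.05.

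Trap1 was next set against both cytosolic HSP90 genes. The log2 ratio of Trap1 to Hsp90aa1, the stress-inducible form, was 1.20, 0.79, 1.27 and 0.71 in control and 1.84, 1.53, 1.66 and 1.56 in KO replicates. The ratio of Trap1 to Hsp90ab1, the constitutive form, was -3.32, -3.27, -3.34 and -3.48 in control and -3.16, -3.18, -3.17 and -3.22 in KO replicates. Neither ratio overlapped between genotypes, and each KO library held more Trap1 per cytosolic HSP90 transcript than any control library. The differences of 0.65 and 0.17 (log2) each had p = 0.0286, the smallest p of the exact permutation test, and 0.0667 after adjustment over the 7 ratios, so that neither passed the adjusted threshold.

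The remaining relatives overlapped. Dnaja1, the cytosolic J protein of the same type as Dnaja3, went from 66.1 ± 8.6 to 48.8 ± 3.61 CPM (SD, n = 4 each; log2 fold change -0.44, adjusted p = 0.0346 in edgeR), and the log2 ratio of Dnaja3 to Dnaja1 was 0.36 higher in KO muscle (exact permutation p = 0.0571, adjusted 0.0999). Tcp1, a subunit of the cytosolic chaperonin TRiC, was at 170 ± 6.94 and 164 ± 10.4 CPM (SD, n = 4 each). The log2 ratio of Hspd1 to Tcp1 differed by -0.12 (exact permutation p = 0.343, adjusted 0.4). It was -0.039 without control replicate 2 and -0.187 (exact permutation p = 0.0571) without KO replicate 3. Tcp1 had the smallest difference of the TRiC subunits. Cct6a and Cct3, with log2 fold changes of -0.35 and -0.37, were lower at an adjusted p under 0.05 in edgeR, and their ratios to Hspd1 were not tested.

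**Figure D4:**
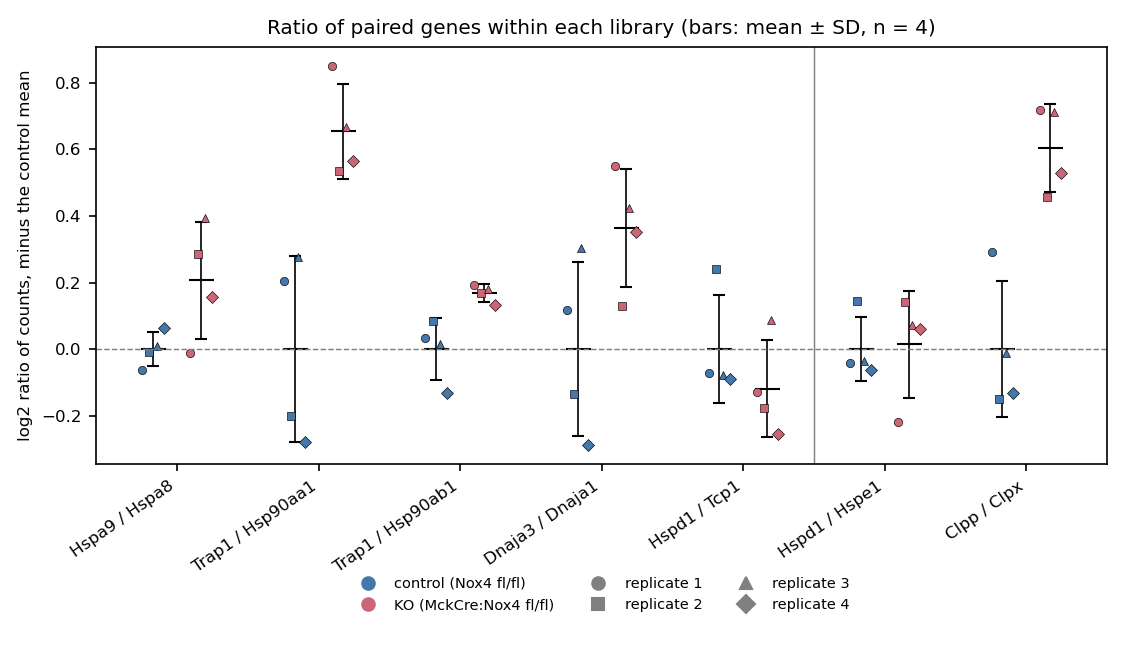
Log2 ratio of the counts of paired genes in each library, minus the control mean of that ratio, with mean and SD bars (4 mice per genotype). The 5 ratios left of the line set a mitochondrial member against a cytosolic relative, and the 2 on the right compare members with each other. KO points lie wholly above control points for Trap1 to Hsp90aa1, Trap1 to Hsp90ab1 and Clpp to Clpx.

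The rest of the mitochondrial folding, protease and import machinery showed few differences. Of 17 other mitochondrial chaperones and cofactors, 0 were called in either direction in edgeR and 10 had a log2 fold change below 0 (median -0.02). Of 17 other proteases and peptidases, 0 were called and 5 were below 0 (median 0.04). Within that list, Spg7, which encodes the partner subunit of AFG3L2, had a log2 fold change of 0.18 (adjusted p = 0.301). The smallest p there was that of Atp23, at 0.688 ± 0.179 CPM in control and 1.37 ± 0.237 CPM in KO muscle (SD, n = 4 each; adjusted p = 0.0715 in edgeR). Among the chaperones, the smallest p belonged to Dnajc19, a J protein of the import motor, with a log2 fold change of 0.23 (adjusted p = 0.369). Grpel1, the nucleotide exchange factor that works with the product of Hspa9, had -0.15 (adjusted p = 0.474).

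Of 26 import genes, 1 was called lower and 0 higher (median log2 fold change 0.02). It was Timm10, a small chaperone that escorts membrane proteins between the mitochondrial membranes, which fell from 16.2 ± 1.45 to 10.3 ± 2.15 CPM (SD, n = 4 each; -0.66 ± 0.158 SE, adjusted p = 0.0255 in edgeR). Its partner gene Timm9 had a log2 fold change of 0.24 (adjusted p = 0.295). Together, 1 of these 60 other genes (1.67%) was called lower, against 3.48% of all rows. In 2 of them (3.33%) all KO libraries were below all control libraries, against 8.97% of all rows. Their summed level was 2526, 2505, 2539 and 2296 CPM in control and 2689, 2177, 2582 and 2542 CPM in KO replicates, which overlapped.

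Among 9 tested regulators of the mitochondrial stress response, 1 was called lower and 0 higher (median log2 fold change -0.03), where 3.48% of all rows were called lower and 2.68% higher. Fgf21 and Gdf15, which encode secreted products of the response, were in the table but had too few counts to be tested. Cebpb fell by 1.13 on the log2 scale (adjusted p = 0.0305 in edgeR). Atf4, which encodes a transcription factor of the response, had a log2 fold change of -0.49 with an adjusted p of 0.0354, just short of the fold change for a call. Atf5 (adjusted p = 0.802), Ddit3, which encodes CHOP (0.767), and Hsf1 (0.456) did not pass. Of 14 chaperones of the endoplasmic reticulum, 2 were called lower and 0 higher, namely Hyou1 (-0.54) and Dnajb9 (-0.74). Their list had 13 log2 fold changes below 0 (median -0.20), where 47.7% of all rows were below 0.

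Most genes of the citrate cycle and the respiratory chain had fold changes above 0, unlike the members. In the citrate cycle list 6 of 17 genes had a log2 fold change below 0 (median 0.02), and among nuclear subunits of the respiratory chain 5 of 36 did (median 0.09), with 0 called in both lists in edgeR. The smallest p in these lists belonged to Sdhd (log2 fold change 0.21, adjusted p = 0.445) and Ndufa2 (0.29, adjusted p = 0.378). Only 3 of 13 mitochondrially encoded subunits were tested, with 0 called and a median of -0.04, and mt-Co3 had the smallest p (adjusted p = 0.843). Of 14 biogenesis factors, 12 were below 0 (median -0.25) and 0 were called, and the smallest p was that of Polrmt, the RNA polymerase of mitochondria, at -0.38 (adjusted p = 0.0424).

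The members did not vary as 1 block from mouse to mouse. KO replicate 2 was the lowest of all 8 libraries for 7 members, whereas KO replicate 1 was the highest of all 8 for Hspe1, Lonp1 and Clpp. Likeness was measured as the root mean square difference between mean-centred log2 CPM over the 8 libraries, where smaller is more alike. Dnaja3 and Trap1 were the most alike members (0.0588), followed by Trap1 and Lonp1 (0.0672), and Hspa9 and Afg3l2 (0.0812). The least alike were Clpp and Yme1l1 (0.346) and Clpp and Clpx (0.337), the latter being the partners of 1 protease. Hspd1 and Hspe1, which share a promoter, stood at 0.114.

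Among rows with a mean of at least 5 CPM, the patterns most like that of Clpx over the 8 libraries were those of Rrp15, a factor of ribosomal RNA processing (0.0723), Psma1, a subunit of the proteasome core (0.0865), and Ptges3, the HSP90 cochaperone p23 (0.0897). Their levels went from 10.03 ± 0.91 to 6.39 ± 0.961 CPM for Rrp15, from 105 ± 3.96 to 70.9 ± 6.25 CPM for Psma1 and from 103 ± 9.49 to 64.4 ± 6.1 CPM for Ptges3 (SD, n = 4 each). The patterns most like that of Yme1l1 were those of Rfx7, a transcription factor (0.038), Ipo7, a nuclear import receptor (0.0493), and Rab11fip3, a partner of the Rab11 GTPase (0.0529). These likenesses are a description over 8 libraries that share 1 genotype difference.

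Promoter windows in RefSeq (GRCm38.p6, 300 bases each) were found for 8 of the 10 members, not for Hspa9 and Afg3l2, as 9 windows, the pair of Hspd1 windows included. Both strands were searched for 6 motifs. The heat shock element of 2 units (GAANNTTC or TTCNNGAA) was in 3 of 9 member windows, those of Hspe1, Hspd1 and Clpp, and in 15.1% of all 32851 windows. Of 67 windows of cytosolic chaperone genes 23 held it, in 20 of the 50 such genes with a window. The element of 3 units, which adds NN and a further inverted unit to that of 2 units and so contains it, was in 2 member windows, those of Hspe1 and Hspd1, which overlap and hold the same site. It was in 0.603% of all windows and in 5 of the 67 cytosolic windows, those of 3 of the 50 cytosolic genes. Of the members with a heat shock element, none was called.

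The composite element of ATF4 and CHOP (TGATGNAA) was in 0 member windows and in 3.97% of all windows, and the element of estrogen-related receptors (TCAAGGTCA) in 0 and 0.423%. The core of the antioxidant response element (TGACNNNGC), to which NFE2L2 is known to bind, was in the window of Lonp1 and in 12.4% of all windows. The NRF1 site was in the windows of Hspd1 and Dnaja3 and in 4.6% of all. A match is no evidence of binding, and the absence of one says only that these letters are not in the window.

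The tissue's other cell types were checked with marker lists, and their part in the members' differences was not tested. Of 9 immune cell markers 8 had a log2 fold change below 0 and 0 were called in edgeR, with Cd14 giving the smallest p (adjusted p = 0.0869). Their summed level was 47.8 to 126 CPM in control and 26.5 to 74.8 CPM in KO libraries. Slow fiber markers were all above 0 (10 of 10), with Casq2 called higher (log2 fold change 1.02), and summed to 344 to 744 CPM in control and 455 to 1322 CPM in KO libraries. Of 10 fast fiber markers 0 were called, with Actn3 giving the smallest p (adjusted p = 0.349) and a summed level of 130390 to 157469 CPM in control and 138744 to 165050 CPM in KO libraries.

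Both tested blood markers were above 0 and Hba-a1, a globin chain, was called higher (log2 fold change 1.24), with a summed level of 14.8 to 16.8 CPM in control and 22.6 to 52.7 CPM in KO libraries. Of 8 endothelial markers 1 was called higher, Vwf (0.74), with summed levels of 229 to 273 and 259 to 290 CPM. Adipocyte markers (0 of 7 called, smallest p for Plin1, summed levels of 163 to 299 and 160 to 210 CPM), fibroblast and tendon markers (0 of 10, Col1a2, 480 to 812 and 519 to 833 CPM), denervation markers (0 of 7, Myog, 62.7 to 113 and 44.4 to 65.9 CPM) and skeletal muscle markers (0 of 10, Mylpf) had no call.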

How the data were processed

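Poly(A) RNA of whole gastrocnemius, 1 library per mouse, was sequenced in unstranded paired-end libraries. The authors deposited raw counts per gene, taken from the feature count matrices of an nf-core RNA-seq workflow run in Laxy. The submitters' processing notes name STAR and GRCm39. The annotation and the settings for counting are not given in the sources used here. All 8 columns matched a sample by name. Of 32390 rows, 412 repeat an earlier name, and a name stands for its row with most counts. The BCV was 0.174.

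Counts were scaled by TMM, filtered with filterByExpr and tested with edgeR 4.0.16 (robust quasi-likelihood fit, genotype only, R 4.3.3), with Benjamini-Hochberg adjustment over 12725 rows. The thresholds follow the study's methods. The fit was tested on simulated data. CPM are TMM-scaled, and lengths and overlaps come from GENCODE M21 (the comprehensive lengths chosen after seeing the data). The alternatives used DESeq2 1.42.0, pydeseq2 0.5.4, limma 3.58.1 (voom), other scalings, filters and thresholds, a replicate block, a covariate for odd against even replicates and each library left out. Ratios were compared by exact two-sided permutation of genotype.

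The members and the 24 gene lists were chosen with earlier results of these data known. Genes named were the members, their 7 ratio partners' genes, Nox4, in each list the 3 called genes with the smallest p in each direction or, with none called, the gene with the smallest p, and the 3 rows most like each of the 2 members with the smallest p. Partners of members (Spg7, Grpel1, Timm9), Cct3, Fgf21, Gdf15 and Atf4, Atf5, Ddit3 and Hsf1 were named after their values were seen.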

Additional observations from a re-analysis of the deposited data

Results flagged for a closer look

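Of 34 groups of 4 libraries (the CPM of each member and the 7 ratios, by genotype), 4 had a library set apart from the other 3 by Dixon's ratio, where chance gives about 1.7. Dnaja3 had 94.4 CPM in control replicate 4, below the other control libraries (ratio 0.837). Afg3l2 had 90.9 CPM in control replicate 2, above the others (0.937). The same library stood apart with the highest Hspd1 to Tcp1 log2 ratio, 0.564 (0.946), and the highest control Hspd1 to Hspe1 log2 ratio, 2.19 (0.865).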

How the results depend on the processing

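Clpx was the only member called in every alternative run, with a log2 fold change of -0.70 to -0.62 and an adjusted p of 2.07e-08 to 0.0102 over 18 alternatives. No member was called higher in any of them. Adjusted p-values ranged from 0.00867 to 0.162 for Yme1l1 (under 0.05 in 5 of 18) and from 0.019 to 0.228 for Hspa9 (2 of 18). The log2 fold change of Clpp ranged from -0.12 to 0.044 when 1 library was left out, and was 0.044 without KO replicate 2, 0.015 without KO replicate 4 and 0.017 without control replicate 1; the cause was not tested. At an adjusted p under 0.01, 6 cytosolic chaperones were called lower and 252 rows called in all, against 784 rows at 0.05. Leaving out 1 library gave 499 rows (without control replicate 4) to 712 rows. Cytosolic chaperones called higher numbered 1 in DESeq2 and 1 in pydeseq2, namely Hspb3, and 0 to 2 with 1 library left out (Hspb3 and, without KO replicate 2, Hspb2). Over the alternatives the log2 fold change ranged from -0.23 to -0.117 for Hspd1, -0.243 to -0.085 for Hspe1, -0.137 to -0.028 for Dnaja3, -0.152 to -0.079 for Trap1, -0.114 to -0.029 for Lonp1 and -0.237 to -0.148 for Afg3l2. Leaving out 1 library, the log2 ratio differences ranged from 0.144 to 0.279 for Hspa9 to Hspa8, 0.561 to 0.746 for Trap1 to Hsp90aa1, 0.124 to 0.196 for Trap1 to Hsp90ab1, 0.268 to 0.465 for Dnaja3 to Dnaja1, -0.187 to -0.039 for Hspd1 to Tcp1, 0.555 to 0.702 for Clpp to Clpx and -0.029 to 0.092 for Hspd1 to Hspe1, whose sign turned without control replicate 1 (-0.001) or 4 (-0.008) and without KO replicate 2 (-0.029), 3 (-0.006) or 4 (-0.002). With any 1 KO library left out, the exact p of the Trap1 to Hsp90ab1 and Clpp to Clpx ratios was 0.0571, as was that of Trap1 to Hsp90aa1 without KO replicate 1.

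The replicate numbers are shared by the genotypes. Same-numbered libraries correlated in their deviations from the group means at 0.223, 0.147, 0.041 and 0.0412, and not every library correlated best with its own number. Across genotypes, pairs that were both odd-numbered or both even-numbered ranged from 0.041 to 0.223. Pairs of an odd and an even number ranged from -0.215 to 0.00804. With a term for odd and even numbers 962 rows were called, and what these libraries share beyond a number was not tested. With the replicate block, 933 rows were called and 1 member, Clpx, was lower, and the ratio differences of 0.654 (Trap1 to Hsp90aa1), 0.167 (Trap1 to Hsp90ab1) and 0.605 (Clpp to Clpx) had an exact p of 0.125, the smallest that 4 pairs allow.

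Every member had at least 297 counts in each library. Protein levels, fiber types and single cells were not analysed here.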
